A study of Mus musculus with 16 samples.

Results

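The genes of major histocompatibility complex (MHC) class I presentation were followed across 4 genotypes of mouse hippocampus. The set was named by gene symbol and holds the light chain B2m, the classical heavy chains H2-D1 and H2-K1, the peptide loading genes Tap1, Tap2 and Tapbp, the immunoproteasome subunits Psmb8 and Psmb9, and the transactivator Nlrc5. All 9 were present among the 55385 genes of the count table, each in 1 row, and 9 of 9 passed the low-count filter that left 16684 genes for testing. Polyadenylated RNA of whole hippocampus from mice aged 5 months was sequenced in 16 libraries, 4 per genotype, and no treatment is named. The 5xFAD-Dp16 group carries both modifications described next and consists of 4 males. The 5xFAD group (2 males, 2 females) is a transgenic model in which human transgenes with familial Alzheimer disease mutations are driven by the neuronal Thy1 promoter. The Dp16 group (2 males, 2 females) models Down syndrome through a duplication of part of chromosome 16. The wild-type group (2 males, 2 females) is C57BL/6J. The labels name a strain for the wild-type mice alone. Whether each library is a mouse of its own is not stated, and the p-values cover the spread between libraries, which may be technical.

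Almost every nucleated cell can display class I molecules, in which a heavy chain pairs with beta-2 microglobulin around a short peptide. Proteasomes cut the peptides in the cytosol, the TAP transporter carries them into the endoplasmic reticulum, and tapasin holds an empty class I molecule near the transporter until a peptide is bound. Interferons raise the whole set, in part through NLRC5, and replace the constitutive catalytic subunits of the proteasome by immunoproteasome subunits. In brain, class I transcripts are found in microglia and endothelium and at lower levels in neurons, and CD8 T cells and natural killer cells read the molecules.

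Of the 9 genes, 7 lie in the MHC on chromosome 17 of GRCm38. H2-K1 (ENSMUSG00000061232.16) spans 33996017 to 34000347 on the minus strand. H2-D1 (ENSMUSG00000073411.11 in the annotation used for positions, ENSMUSG00000073411.12 in the count table) spans 35262730 to 35267499 on the plus strand in that annotation. Between them lie Psmb9 (34181987 to 34187764, minus strand), Tap1 (34187553 to 34197225), Psmb8 (34197721 to 34201454) and Tap2 (34203527 to 34216321), the last 3 on the plus strand, and Tapbp lies at 33915899 to 33929292. B2m (ENSMUSG00000060802.8) is on chromosome 2 at 122147686 to 122153083, and Nlrc5 is on chromosome 8 at 94434356 to 94527272. No member therefore lies on chromosome 16, part of which is duplicated in Dp16.

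The upstream sequence of the classical genes and B2m is known for an enhancer that binds NF-kappa-B and interferon regulatory factors, followed by the SXY module through which NLRC5 acts. RefSeq upstream windows (GRCm38.p6) were matched by symbol for 7 of 9 members; Tap2 and Nlrc5 were not matched. The 250 bases before the RefSeq transcript start are shown for the 3 genes with the firmest results and for Tap1, which shares its upstream region with Psmb9. For H2-D1, Tapbp, Psmb8 and Psmb9 this window lies inside the gene span given above, whose annotated start is further upstream. The bases before that earlier start were not searched. Each reads 5′ to 3′ on the strand of the gene, and capitals mark matches on either strand to AANNGAAA (interferon regulatory factor core), GGGNNTTCC (a kappa-B form), TGACG (core of the X2 box) and ATTGG (inverted CCAAT, core of the Y box). The windows are B2m at chr2:122147437-122147686 (plus strand), H2-D1 at chr17:35262844-35263093 (plus strand), H2-K1 at chr17:34000348-34000597 (minus strand) and Tap1 at chr17:34187306-34187555 (plus strand).
B2m: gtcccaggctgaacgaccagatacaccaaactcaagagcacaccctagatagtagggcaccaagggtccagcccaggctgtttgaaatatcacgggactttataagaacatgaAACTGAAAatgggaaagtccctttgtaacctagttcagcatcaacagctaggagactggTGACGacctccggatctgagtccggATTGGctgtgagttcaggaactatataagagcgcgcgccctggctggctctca
H2-D1: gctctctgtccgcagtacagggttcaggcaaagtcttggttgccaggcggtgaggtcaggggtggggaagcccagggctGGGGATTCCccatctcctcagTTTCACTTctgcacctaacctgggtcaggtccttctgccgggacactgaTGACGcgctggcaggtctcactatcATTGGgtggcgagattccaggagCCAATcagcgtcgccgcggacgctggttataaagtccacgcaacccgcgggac
H2-K1: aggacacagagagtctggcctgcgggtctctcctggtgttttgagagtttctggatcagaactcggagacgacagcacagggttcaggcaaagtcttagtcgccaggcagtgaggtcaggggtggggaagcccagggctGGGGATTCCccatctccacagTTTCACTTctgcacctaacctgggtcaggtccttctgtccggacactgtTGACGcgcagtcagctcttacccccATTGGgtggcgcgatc
Tap1: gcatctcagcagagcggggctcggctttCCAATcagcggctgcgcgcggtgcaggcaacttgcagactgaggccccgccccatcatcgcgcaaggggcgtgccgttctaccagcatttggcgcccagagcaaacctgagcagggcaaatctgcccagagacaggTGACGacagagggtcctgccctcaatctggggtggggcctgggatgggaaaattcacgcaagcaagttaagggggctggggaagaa

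The interferon regulatory factor core was found in 3 of 7 matched members (B2m, H2-D1 and H2-K1) and in 21.3% of the 32851 mouse upstream windows of the same length. The kappa-B form was found in 2 of 7, H2-D1 and H2-K1, and in 5.0% of all windows. This pattern has a fixed length of 9 bases, and kappa-B forms with other spacing were not searched. That holds also for the lower-case bases just after the interferon regulatory factor core of B2m. The lack of a match therefore does not show that B2m has no kappa-B site. TGACG was found in 5 of 7 members and 17.8% of all windows, and ATTGG in 6 of 7 and 33.8%. B2m, H2-D1 and H2-K1 also held TGACG followed by ATTGG with 20 bases between them, an arrangement present in 30 windows (0.0913%). This spacing was chosen after the windows were seen. The windows of H2-K1 and H2-D1 were identical at 166 of 188 aligned positions (88.3%). The Tap1 and Psmb9 genes point away from each other, and their windows share 225 bases. These letter matches describe the sequence, not binding.

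**Figure D1:**
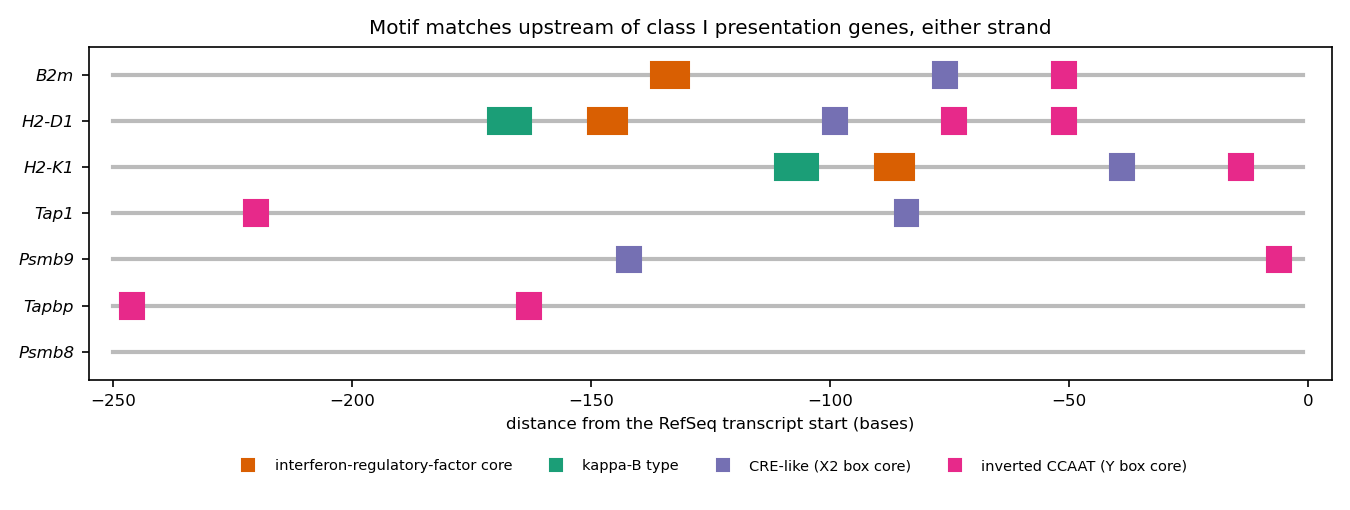
Matches to the 4 motifs, on either strand, in the 250 bases upstream of 7 members; the horizontal axis is the distance in bases from the RefSeq transcript start and each coloured block is a match. B2m, H2-D1 and H2-K1 show the interferon regulatory factor core, TGACG and ATTGG in the same order, and Psmb8 shows no match in this window.

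Total counts were 15838097 to 25037769 per library, and levels below are CPM, read counts scaled to library size by TMM, a trimmed mean of log ratios between libraries. The log2 CPM of any pair of libraries correlated at 0.9548 to 0.9895 over genes. Neuronal markers summed to 5799 to 7244 CPM in 5xFAD-Dp16, 5422 to 6188 CPM in 5xFAD, 6423 to 7313 CPM in Dp16 and 5023 to 7732 CPM in wild-type, and 0 of 7 passed in any pairwise comparison; in 5xFAD against wild-type 6 of 7 were negative, with a median log2 difference of -0.20. Markers of midbrain and hypothalamus stood apart in 5xFAD-Dp16 replicate 3 (65.7 CPM), 5xFAD replicate 2 (345 CPM) and wild-type replicate 4 (319 CPM), against 5.71 to 17.7 CPM in the other libraries. These 3 and 5xFAD replicate 4 were set aside in an earlier analysis of the data and are left out together as an alternative. Choroid plexus markers differed widely within every genotype: 447 to 6175 CPM in 5xFAD-Dp16, 350 to 7662 CPM in 5xFAD, 260 to 4895 CPM in Dp16 and 249 to 8973 CPM in wild-type. The human transgenes were not analysed here, and the duplication was visible in Ifnar1, a gene of its segment, which had 54.3 ± 2.33 CPM in 5xFAD-Dp16, 36.3 ± 2.08 in 5xFAD, 57.8 ± 3.68 in Dp16 and 35.1 ± 1.33 in wild-type (mean ± SD, n = 4 each).

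B2m and both classical heavy chains were higher in the 2 groups that carry the 5xFAD transgenes than in the 2 groups without them. B2m encodes the light chain shared by all class I molecules. The 5xFAD-Dp16 libraries had 212, 241, 209 and 213 CPM and the 5xFAD libraries 264, 231, 225 and 177 CPM. The Dp16 libraries had 127, 110.2, 125 and 145 CPM and the wild-type libraries 93.3, 111, 108 and 119.6 CPM. Every carrier library lay above every library without the transgenes, since the lowest carrier, 5xFAD replicate 4, had 177 CPM and the highest of the others, Dp16 replicate 4, had 145 CPM. B2m rose 2.07-fold in 5xFAD against wild-type (log2 1.05 ± 0.10 SE, edgeR quasi-likelihood test, Benjamini-Hochberg adjusted p = 1.4e-05) and 2.21-fold in 5xFAD-Dp16 against wild-type (log2 1.14 ± 0.11, adjusted p = 2.07e-05).

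H2-D1 encodes the heavy chain of the classical molecule H-2D. It had 97.7, 120.2, 80.5 and 87.5 CPM in the 5xFAD-Dp16 libraries and 103, 93.2, 94.7 and 73.4 CPM in the 5xFAD libraries. The Dp16 libraries had 59.3, 46.5, 53.4 and 69.0 CPM and the wild-type libraries 39.0, 46.4, 41.7 and 53.5 CPM. Carriers and non-carriers again did not overlap, and Dp16 replicate 4 and 5xFAD replicate 4 were the libraries nearest to each other. H2-D1 rose 2.02-fold in 5xFAD against wild-type (log2 1.02 ± 0.12, edgeR adjusted p = 0.00021) and 2.38-fold in 5xFAD-Dp16 against wild-type (log2 1.25 ± 0.14, adjusted p = 7.4e-05).

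H2-K1, the heavy chain of the classical molecule H-2K, had the smallest fold change of the 3 chains in both carrier groups against wild-type, a difference that was not tested. It had 55.5, 56.2, 50.04 and 48.2 CPM in the 5xFAD-Dp16 libraries and 54.8, 52.8, 54.4 and 37.9 CPM in the 5xFAD libraries. The Dp16 libraries had 37.0, 31.8, 33.99 and 42.5 CPM and the wild-type libraries 25.6, 35.5, 34.2 and 33.9 CPM. Here 5xFAD replicate 4 fell among the Dp16 values, while both carrier groups stayed above all wild-type libraries. H2-K1 rose 1.55-fold in 5xFAD (log2 0.63 ± 0.11, edgeR adjusted p = 0.0095) and 1.77-fold in 5xFAD-Dp16 (log2 0.82 ± 0.12, adjusted p = 0.00252), each against wild-type. The call in 5xFAD was lost without wild-type replicate 1 (adjusted p = 0.0519) or without 5xFAD replicate 3 (adjusted p = 0.0562). Among males alone both calls were lost (edgeR adjusted p = 0.220 in 5xFAD and 0.111 in 5xFAD-Dp16). Some reads of both heavy chains can match other class I genes: 3.59% of the 100-base windows of H2-D1 transcripts and 0.96% of those of H2-K1 also occur in transcripts of other genes, H2-Q7 among them. Class I heavy chains differ between mouse strains, and the part of a strain difference in these counts was not tested.

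**Figure D2:**
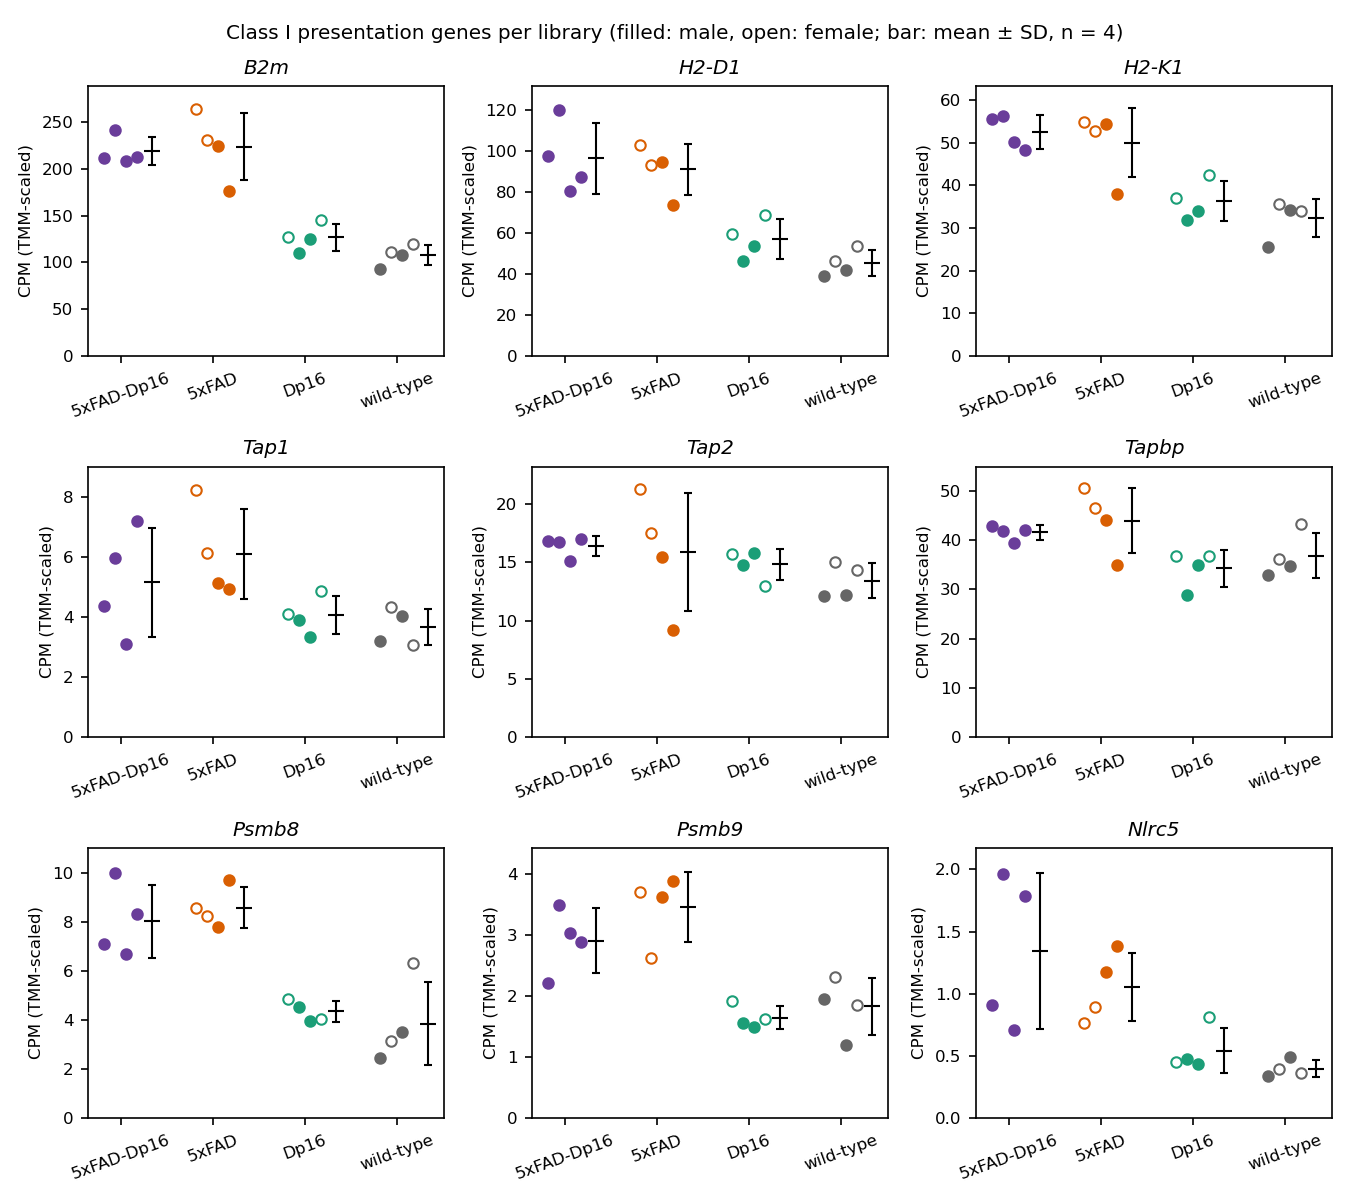
TMM-scaled CPM of the 9 members in each library (vertical axes, linear from 0), with the 4 libraries of each genotype side by side, filled circles for males, open circles for females, and a bar for the mean ± SD (n = 4). All 8 carriers of the 5xFAD transgenes lie above all 8 other libraries for B2m, H2-D1 and Psmb8 (3 of 9 members, against 0.959% of all genes), and 5xFAD replicate 4 is the lowest 5xFAD library for B2m, H2-D1, H2-K1, Tap1, Tap2 and Tapbp.

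None of the 3 peptide loading genes passed the test in any comparison, although all 3 had positive differences from wild-type in both carrier groups. Tap1 and Tap2 encode the subunits of the peptide transporter. Tap1 averaged 5.16 ± 1.81 CPM in 5xFAD-Dp16, 6.11 ± 1.51 in 5xFAD, 4.06 ± 0.64 in Dp16 and 3.67 ± 0.61 in wild-type (mean ± SD, n = 4 each). All 4 5xFAD libraries (4.93 to 8.24 CPM) lay above all 4 wild-type libraries (3.08 to 4.32 CPM), and the log2 difference was 0.71 ± 0.24 (edgeR adjusted p = 0.294). The 5xFAD-Dp16 libraries ran from 3.09 to 7.21 CPM and overlapped wild-type.

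Tap2 averaged 16.4 ± 0.89 CPM in 5xFAD-Dp16, 15.9 ± 5.07 in 5xFAD, 14.8 ± 1.32 in Dp16 and 13.4 ± 1.48 in wild-type. The wide spread in 5xFAD came from libraries of 21.3 and 9.17 CPM, replicates 1 and 4, which were the highest and the lowest of all 16. Against wild-type the log2 difference of Tap2 was 0.22 ± 0.17 in 5xFAD (edgeR adjusted p = 0.706) and 0.44 ± 0.18 in 5xFAD-Dp16 (adjusted p = 0.630). Tapbp, which encodes tapasin, averaged 41.6 ± 1.53 CPM in 5xFAD-Dp16, 44.0 ± 6.68 in 5xFAD, 34.3 ± 3.76 in Dp16 and 36.8 ± 4.56 in wild-type. Its log2 difference was 0.25 ± 0.093 in 5xFAD (edgeR adjusted p = 0.394) and 0.30 ± 0.10 in 5xFAD-Dp16 (adjusted p = 0.335), each against wild-type; the value in 5xFAD passed without the 4 libraries set aside for midbrain genes (adjusted p = 0.0336). Of the exon bases of Tapbp, 29.02% overlap other genes, mainly Zbtb22 on the same strand (468 to 901 counts per library). How reads in such shared bases were assigned is not stated, so the Tapbp count may have gained or lost reads there. Tap1 and Psmb9 share 212 exon bases on opposite strands, and Tap2 (18.46%) and Psmb8 (14.73%) overlap genes that had at most 16 counts in any library.

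Among immunoproteasome subunits, Psmb8 rose with the 5xFAD transgenes. Psmb8 takes the place of the constitutive catalytic subunit Psmb5, and Psmb9 that of Psmb6. Psmb8 had 7.07, 9.99, 6.69 and 8.31 CPM in the 5xFAD-Dp16 libraries and 8.56, 8.24, 7.77 and 9.71 CPM in the 5xFAD libraries. The Dp16 libraries had 4.83, 4.52, 3.97 and 4.03 CPM and the wild-type libraries 2.43, 3.14, 3.52 and 6.29 CPM. Carriers and non-carriers did not overlap, although wild-type replicate 4, a library high in midbrain genes, reached 6.29 CPM, close to the lowest carrier. Psmb8 rose 2.26-fold in 5xFAD (log2 1.18 ± 0.23, edgeR adjusted p = 0.0161) and 2.27-fold in 5xFAD-Dp16 (log2 1.18 ± 0.25, adjusted p = 0.0342), each against wild-type. The call in 5xFAD was lost without wild-type replicate 1, 2 or 3 (adjusted p = 0.0787, 0.0728 and 0.0604). The call in 5xFAD-Dp16 was lost without wild-type replicate 1, 2 or 3 (0.218, 0.0753 and 0.150), Dp16 replicate 1 or 3 (0.0623 and 0.0567), 5xFAD-Dp16 replicate 1, 2 or 4 (0.0575, 0.107 and 0.0939) or 5xFAD replicate 3 (0.0542), all edgeR adjusted p.

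Psmb9 had 2.21, 3.50, 3.04 and 2.89 CPM in the 5xFAD-Dp16 libraries and 3.71, 2.62, 3.63 and 3.90 CPM in the 5xFAD libraries. The Dp16 libraries had 1.91, 1.55, 1.49 and 1.63 CPM and the wild-type libraries 1.95, 2.31, 1.20 and 1.86 CPM. The 5xFAD libraries lay above all wild-type libraries, while 5xFAD-Dp16 replicate 1 fell below wild-type replicate 2. The log2 difference was 0.93 ± 0.23 in 5xFAD (edgeR adjusted p = 0.0861) and 0.73 ± 0.25 in 5xFAD-Dp16 (adjusted p = 0.383), each against wild-type, and it passed in 5xFAD with DESeq2 (adjusted p = 0.0170) and in edgeR without 5xFAD replicate 2 (0.0398).

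Within a library, the ratio of an immunoproteasome subunit to its counterpart does not depend on library scaling. On length-scaled values (RPKM), Psmb8 was 5.24 ± 1.19% of Psmb5 in 5xFAD-Dp16, 5.45 ± 0.89% in 5xFAD, 3.01 ± 0.36% in Dp16 and 2.54 ± 1.08% in wild-type (mean ± SD, n = 4 each). The lowest ratio was 4.13% in 5xFAD-Dp16 and 4.21% in 5xFAD, and the highest was 3.38% in Dp16 and 4.10% in wild-type. Psmb9 was 1.48 ± 0.41% of Psmb6 in 5xFAD-Dp16, 1.56 ± 0.36% in 5xFAD, 0.918 ± 0.14% in Dp16 and 0.929 ± 0.26% in wild-type, with 5xFAD and wild-type meeting at 1.26%. Psmb10, the remaining immunoproteasome subunit, was 24.6 ± 2.15% of its counterpart Psmb7 in 5xFAD-Dp16, 22.2 ± 1.04% in 5xFAD, 20.9 ± 1.92% in Dp16 and 22.7 ± 2.39% in wild-type, and these groups overlapped. These ratios were not tested.

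**Figure D3:**
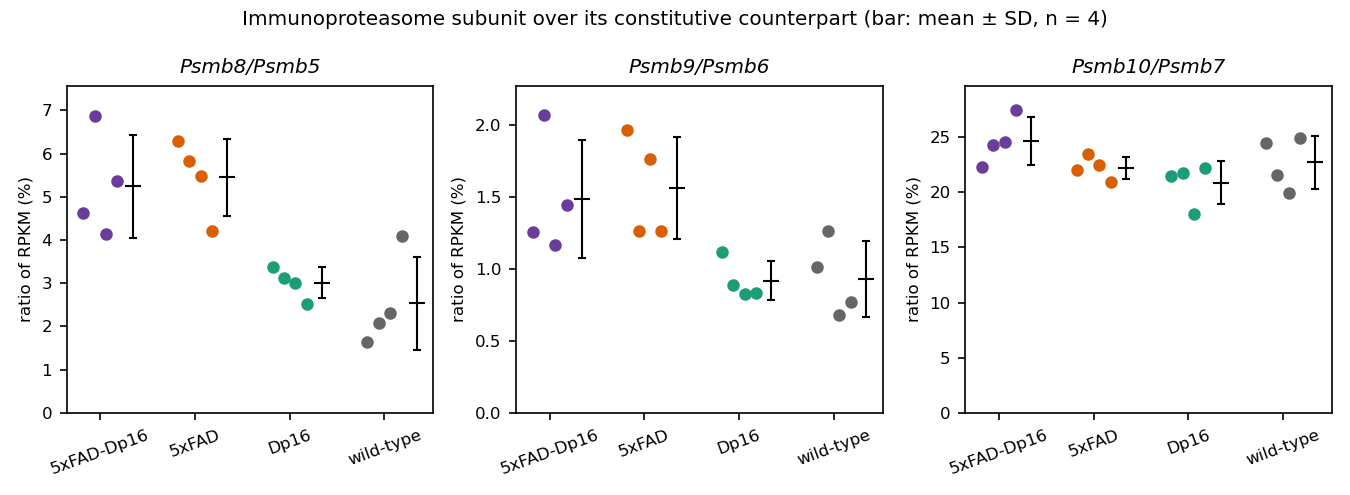
RPKM of Psmb8, Psmb9 and Psmb10 as a percent of Psmb5, Psmb6 and Psmb7 (vertical axes, linear from 0) in each library, grouped by genotype, with the mean ± SD (n = 4). The Psmb8 ratio is 4.13% or more in every 5xFAD-Dp16 and 5xFAD library and 4.10% or less in every Dp16 and wild-type library, while the Psmb10 ratio overlaps in all 4 groups.

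Nlrc5, the transactivator of class I genes, was the least abundant member, with 7 to 46 counts per library. It had 0.905, 1.96, 0.709 and 1.79 CPM in the 5xFAD-Dp16 libraries and 0.767, 0.891, 1.17 and 1.38 CPM in the 5xFAD libraries. The Dp16 libraries had 0.450, 0.471, 0.434 and 0.814 CPM and the wild-type libraries 0.341, 0.393, 0.490 and 0.362 CPM. Both carrier groups lay above all wild-type libraries, and Dp16 replicate 4 lay within the range of both. Its log2 difference from wild-type was 1.39 ± 0.40 in 5xFAD (edgeR adjusted p = 0.180) and 1.69 ± 0.43 in 5xFAD-Dp16 (adjusted p = 0.0935). It passed in 5xFAD-Dp16 with DESeq2 (adjusted p = 0.0336), in edgeR without the sex term (0.0390) and in edgeR without 5xFAD-Dp16 replicate 3 (0.0440). Counts this low leave wide approximate 95% intervals, 1.52 to 4.51-fold in 5xFAD and 1.81 to 5.77-fold in 5xFAD-Dp16.

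Compared per length, B2m was the most abundant member and Nlrc5 the least in all 4 genotypes. B2m had 254 ± 7.39 RPKM in 5xFAD-Dp16, 267 ± 36.3 in 5xFAD, 144 ± 20.3 in Dp16 and 126 ± 20.4 in wild-type (mean ± SD, n = 4 each). H2-D1 followed with 42.5 ± 5.41 RPKM in 5xFAD-Dp16, 41.3 ± 4.72 in 5xFAD, 24.6 ± 4.83 in Dp16 and 20.2 ± 4.19 in wild-type. H2-K1 was next, with 31.7 ± 1.39 RPKM in 5xFAD-Dp16, 30.9 ± 4.47 in 5xFAD, 21.4 ± 3.42 in Dp16 and 19.6 ± 3.52 in wild-type. The heavy chains thus stood apart by more than their SDs in both carrier groups but not in Dp16 or wild-type. Tapbp came next with group means of 11.5 to 15.5 RPKM. Psmb8 and Tap2 followed and changed places: Psmb8 had 4.90 ± 0.71 RPKM in 5xFAD-Dp16, 5.41 ± 0.63 in 5xFAD, 2.59 ± 0.25 in Dp16 and 2.41 ± 1.22 in wild-type, and Tap2 had 4.77 ± 0.24, 4.70 ± 1.41, 4.17 ± 0.23 and 3.92 ± 0.66 RPKM in the same groups. Psmb8 and Tap2 did not differ beyond their SDs in the carrier groups or in wild-type, and neither did Psmb9 and Tap1 in any group. Nlrc5 had group means of 0.0488 to 0.164 RPKM.

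Counted over the set, 4 of 9 members rose in 5xFAD against wild-type (B2m, H2-D1, H2-K1 and Psmb8) and none fell, where 0.965% of all tested genes rose and 0.971% passed in either direction. All 9 had a positive log2 difference, the median being 0.93 against 0.02 over all tested genes, and 8 of 9 had an unadjusted p below 0.05 in the higher direction, as did 5.98% of all genes. In 7 of 9 the 4 5xFAD libraries lay above the 4 wild-type libraries, which held for 3.18% of all genes. In 5xFAD-Dp16 against wild-type the same 4 members rose, where 0.983% of all genes rose. The median log2 difference was 0.82 against -0.004 over all genes, all 9 were positive, and in 6 of 9 the groups did not overlap, as in 3.08% of all genes. These comparisons share the wild-type libraries. DESeq2 called 5 members in each, adding Psmb9 in 5xFAD and Nlrc5 in 5xFAD-Dp16. It also called more genes in all than edgeR in both comparisons, as given in the last section. With all 8 carriers set against all 8 non-carriers, the libraries did not overlap for 3 of 9 members (B2m, H2-D1 and Psmb8) and for 0.959% of all genes.

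The effect of the transgenes was also measured on the Dp16 background. In 5xFAD-Dp16 against Dp16, B2m rose 1.88-fold (log2 0.91 ± 0.11, edgeR adjusted p = 0.000214), H2-D1 1.89-fold (log2 0.92 ± 0.13, adjusted p = 0.00164) and H2-K1 1.57-fold (log2 0.66 ± 0.12, adjusted p = 0.0161). These were 3 of 9 members, where 0.827% of all genes rose, and the median log2 difference was 0.88 against 0.02 over all genes. In 6 of 9 members the groups did not overlap, as in 3.71% of all genes. Psmb8 (log2 0.99 ± 0.25, adjusted p = 0.0896) and Tapbp (log2 0.41 ± 0.10, adjusted p = 0.0938) did not pass, and both passed with DESeq2 (adjusted p = 0.0110 and 0.0349) and in edgeR without the 4 libraries set aside for midbrain genes (0.0153 and 0.0306). Psmb8 also passed in edgeR without the low-count filter (adjusted p = 0.00405) or without wild-type replicate 4 alone (0.0296). The call of H2-K1 was lost without Dp16 replicate 2 or 3 (adjusted p = 0.121 and 0.0799) or 5xFAD-Dp16 replicate 1 or 2 (0.0584 and 0.0509), without the sex term (0.107) and among males alone (0.264).

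The duplication alone gave no call. In Dp16 against wild-type 0 of 9 members passed, where 0.0839% of all genes did, and 0 of 9 had groups that did not overlap, against 1.37% of all genes in the higher direction. DESeq2 called 0 of 9 members as well. At an unadjusted p below 0.05, 2 of 9 were higher, as were 1.5% of all genes: B2m (1.18-fold, approximate 95% interval 1.03 to 1.35, adjusted p = 0.990) and H2-D1 (1.26-fold, interval 1.07 to 1.49, adjusted p = 0.990). The intervals of the other 7 members in Dp16 against wild-type included no difference. That of H2-K1 was 0.961 to 1.31-fold, that of Psmb8 0.834 to 1.56-fold and that of Nlrc5 0.793 to 2.43-fold. The median log2 difference was 0.17 against -0.013 over all genes.

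In 5xFAD-Dp16 against 5xFAD, 0 of 9 members passed and 0 of 9 had an unadjusted p below 0.05, where 0.0539% and 3.28% of all genes did, and DESeq2 also called 0 of 9. The largest difference in fold was that of Nlrc5, 1.23-fold with an approximate 95% interval of 0.719 to 2.11. B2m was 1.07-fold (interval 0.921 to 1.23), H2-D1 1.18-fold (0.984 to 1.41), H2-K1 1.14-fold (0.968 to 1.35) and Psmb8 1.00-fold (0.731 to 1.38). The interaction, which asks whether the 5xFAD effect differed with and without the duplication, passed for 0 of 9 members and for 0 of all genes in edgeR, with 0 of 9 members and 1.99% of all genes at an unadjusted p below 0.05, and DESeq2 called 0 of 9 members. The interaction on the log2 scale was -0.14 ± 0.15 for B2m, -0.098 ± 0.18 for H2-D1, 0.027 ± 0.17 for H2-K1 and -0.19 ± 0.33 for Psmb8. All 5xFAD-Dp16 libraries were male, so these values rest on the sex effect measured in the other genotypes.

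**Figure D4:**
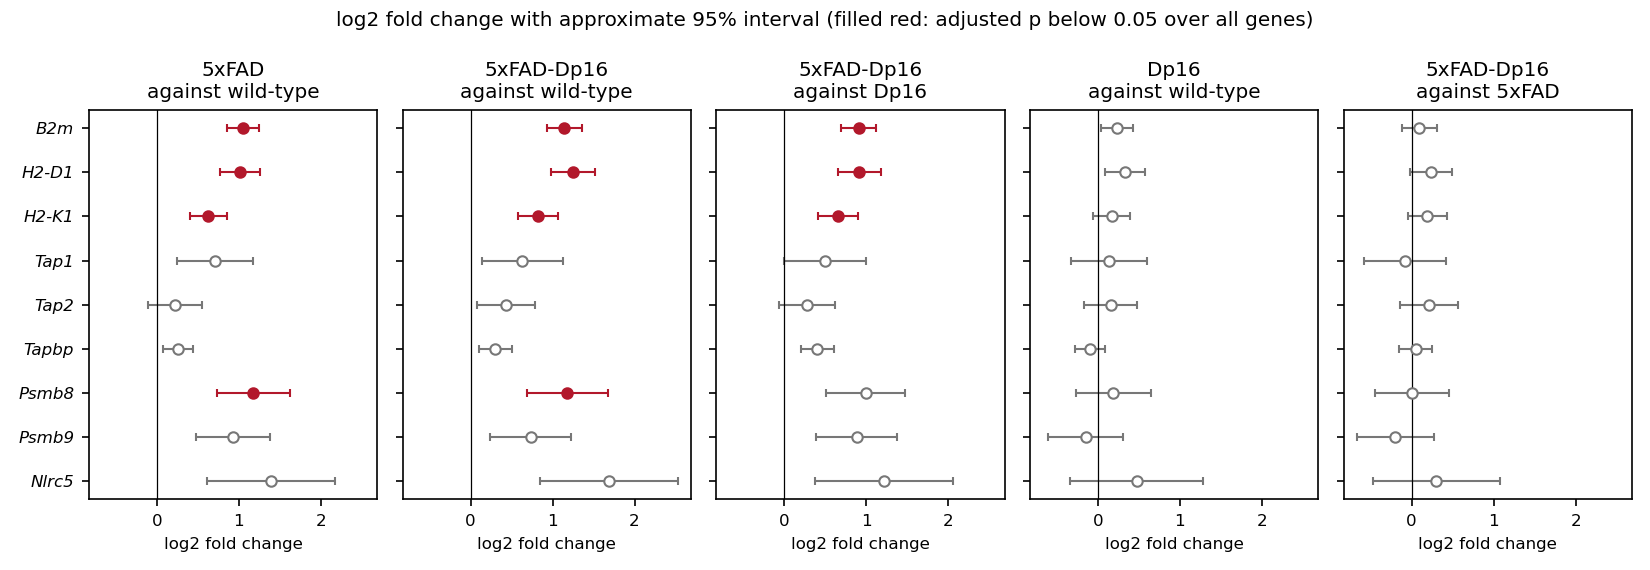
Fitted log2 fold change of each member in 5 comparisons (horizontal axes) with approximate 95% intervals, filled red where the edgeR adjusted p over all genes is below 0.05. B2m, H2-D1 and H2-K1 are filled in the 3 comparisons that differ by the 5xFAD transgenes, and no member is filled in Dp16 against wild-type or 5xFAD-Dp16 against 5xFAD.

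The 5xFAD effect was compared between females and males over the genotypes that hold both. The difference between the sexes itself was not tested. For B2m and Tapbp every female lay above every male in each of these genotypes. In 5xFAD, for example, B2m had 264 and 231 CPM in females and 225 and 177 CPM in males. For each other member the sexes overlapped in some of these genotypes. The 5xFAD-Dp16 levels come from males alone. The 5xFAD effect did not pass as different between females and males for any of 9 members or any of 16416 genes tested in edgeR, with 0 of 9 members and 14.9% of all genes at an unadjusted p below 0.05. B2m differed by 0.10 ± 0.22 on the log2 scale, females minus males, H2-D1 by -0.085 ± 0.22 and Psmb8 by -0.72 ± 0.46, the last with an approximate 95% interval of 0.326 to 1.13-fold. Among males alone B2m kept its call, while H2-D1 in 5xFAD against wild-type had log2 1.04 with an adjusted p of 0.0954, from 2 libraries on each side. H2-K1 passed among males in no comparison that differs by the transgenes. Its edgeR adjusted p was 0.220 in 5xFAD and 0.111 in 5xFAD-Dp16, each against wild-type, and 0.264 in 5xFAD-Dp16 against Dp16. Psmb8 lost its call among males in 5xFAD against wild-type (edgeR adjusted p = 0.0543).

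Beyond the 9 members, class Ib genes and their relatives moved in part. These encode less variable heavy chains that pair with B2m. Of 15 listed, 13 were tested. H2-T23, which encodes the Qa-1 molecule read by natural killer receptors, had 14.1 ± 2.15 CPM in 5xFAD-Dp16, 16.7 ± 1.95 in 5xFAD, 8.60 ± 2.19 in Dp16 and 8.50 ± 1.59 in wild-type (mean ± SD, n = 4 each). It rose in 5xFAD (log2 0.98 ± 0.18, edgeR adjusted p = 0.00856) and in 5xFAD-Dp16 (log2 0.85 ± 0.19, adjusted p = 0.0472), each against wild-type, and was the 1 of 13 to pass in each. Over all tested genes, 0.965% and 0.983% rose there. H2-Q6 was the 1 of 13 to pass in 5xFAD-Dp16 against Dp16 (log2 1.73 ± 0.38, adjusted p = 0.0454), where 0.827% of all genes rose. H2-Q6 had 2.55 ± 0.70 CPM in 5xFAD-Dp16, 2.55 ± 0.43 in 5xFAD, 0.942 ± 0.57 in Dp16 and 1.07 ± 0.39 in wild-type. The list had a median log2 difference of 0.27 in 5xFAD and 0.45 in 5xFAD-Dp16 against wild-type, with 12 of 13 positive in each, against 53.5% and 48.9% of all genes. H2-Q genes are near-identical copies, and reads may have been divided among them.

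General chaperones and peptidases of the same route gave no call. Of 12 loading and peptide processing genes, 0 passed in any of the 5 pairwise comparisons, and the median log2 difference was 0.011 in 5xFAD and 0.020 in 5xFAD-Dp16 against wild-type. Of these listed genes, Ggta1 had the smallest p in both (log2 0.84 ± 0.23, edgeR adjusted p = 0.135, and log2 0.95 ± 0.25, adjusted p = 0.117). It encodes an alpha-galactosyltransferase of the Golgi and is neither a chaperone nor a peptidase. Pdia3, a chaperone of the loading complex, was at log2 0.14 ± 0.085 in 5xFAD against wild-type (adjusted p = 0.660). Of 10 constitutive, regulatory and remaining immunoproteasome genes, 0 passed in any pairwise comparison. Psme2, part of the interferon-inducible proteasome activator, was at log2 0.38 ± 0.20 in 5xFAD (edgeR adjusted p = 0.622), and Psma3 at 0.35 ± 0.21 (adjusted p = 0.651).

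Among 16 tested regulators of class I genes, Irf8 rose with the transgenes. Irf8, an interferon regulatory factor that microglia express, had 14.7 ± 1.32 CPM in 5xFAD-Dp16, 17.3 ± 4.38 in 5xFAD, 5.01 ± 0.97 in Dp16 and 6.49 ± 1.23 in wild-type. It rose in 5xFAD against wild-type (log2 1.39 ± 0.19, edgeR adjusted p = 0.000568), in 5xFAD-Dp16 against wild-type (log2 1.26 ± 0.20, adjusted p = 0.00334) and in 5xFAD-Dp16 against Dp16 (log2 1.64 ± 0.20, adjusted p = 0.000347). Irf9, a subunit of the type I interferon response complex, rose in 5xFAD-Dp16 against wild-type (log2 0.80 ± 0.18, adjusted p = 0.0487). Its mean was the same in both carrier groups, 12.7 ± 3.51 CPM in 5xFAD-Dp16 and 12.7 ± 0.35 in 5xFAD. It had 8.09 ± 1.64 CPM in Dp16 and 7.83 ± 0.89 in wild-type, and did not pass in 5xFAD against wild-type. Thus 1 of 16 passed in 5xFAD and 2 of 16 in 5xFAD-Dp16, both against wild-type, and 0 of 16 in Dp16, while the median log2 differences were 0.025, -0.021 and -0.015. Over all tested genes, 0.965%, 0.983% and 0.0839% rose in the same comparisons.

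Among 7 tested genes of interferon receptors and their kinases, 2 rose with the duplication. Ifnar1 and Ifngr2, subunits of the type I and type II interferon receptors on chromosome 16, rose in Dp16 against wild-type (log2 0.72 ± 0.08, edgeR adjusted p = 0.00143, and log2 0.63 ± 0.10, adjusted p = 0.0201). Both also rose in 5xFAD-Dp16 against 5xFAD (log2 0.59 ± 0.08, adjusted p = 0.0195, and log2 0.72 ± 0.11, adjusted p = 0.0227), which made 2 of 7 in each comparison. Over all tested genes, 0.0839% passed in Dp16 against wild-type and 0.0539% in 5xFAD-Dp16 against 5xFAD. Ifnar2, on the same chromosome, was at log2 0.60 ± 0.11 in Dp16 against wild-type (adjusted p = 0.0681), and Ifngr1, on chromosome 10, at 0.038 ± 0.15 (adjusted p = 0.991). In 5xFAD-Dp16 against wild-type Ifnar2 rose as well (log2 0.94 ± 0.12, adjusted p = 0.000397), giving 3 of 7, where 0.983% of all genes rose. In 5xFAD against wild-type 0 of 7 passed, where 0.971% of all genes did. The ligand genes Ifng and Ifnb1 were too low to test; Ifnb1 had 0 counts in every library, and Ifng had a mean of 0.0243 CPM in wild-type and 0 in the other groups. Of 8 listed receptors for class I molecules only Pirb could be tested, and its log2 difference was 0.053 ± 0.55 in 5xFAD against wild-type (edgeR adjusted p = 0.984).

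**Figure D5:**
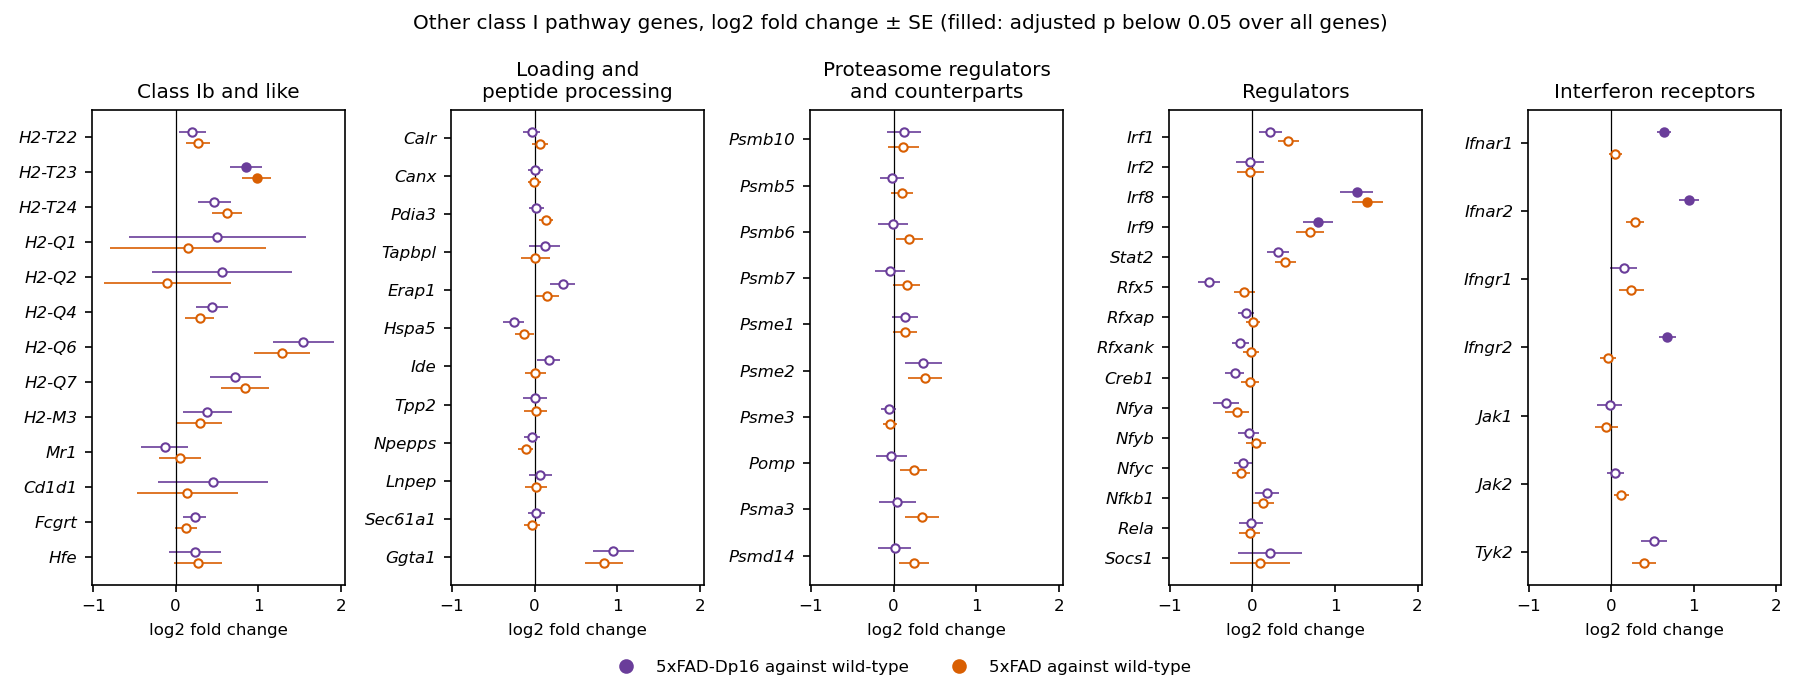
Fitted log2 fold change ± SE (horizontal axes) against wild-type of other listed pathway genes in 5xFAD-Dp16 and 5xFAD, filled where the edgeR adjusted p over all genes is below 0.05. H2-T23 and Irf8 are filled in both comparisons, Irf9, Ifnar1, Ifnar2 and Ifngr2 in 5xFAD-Dp16 alone, and the loading and proteasome panels hold no filled point. Irf9 averaged 12.7 CPM in both 5xFAD-Dp16 and 5xFAD.

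Markers of microglia, the immune cells of the brain, rose in the 3 comparisons that differ by the 5xFAD transgenes, as did B2m, H2-D1 and H2-K1. The 12 microglial markers summed to 813 to 996 CPM in 5xFAD-Dp16, 897 to 1403 CPM in 5xFAD, 473 to 495 CPM in Dp16 and 479 to 543 CPM in wild-type. Of them, 8 of 12 rose in 5xFAD against wild-type, 5 of 12 in 5xFAD-Dp16 against wild-type and 7 of 12 in 5xFAD-Dp16 against Dp16. Of all genes, 0.965%, 0.983% and 0.827% rose in these comparisons. In Dp16 against wild-type and in 5xFAD-Dp16 against 5xFAD, 0 of 12 passed and 2 of 12 were positive. The median log2 differences there were -0.11 and -0.15, against 0.17 and 0.093 for the 9 class I members. The 4 microglial markers with the smallest p in 5xFAD were Tyrobp (log2 2.33 ± 0.13), Trem2 (2.43 ± 0.16), C1qb (1.44 ± 0.10) and C1qa (1.5 ± 0.11), with edgeR adjusted p of at most 7.94e-07. In bulk tissue, more cells of a type and more RNA per cell cannot be told apart, and the part of microglia in the class I result was not tested. Of 6 astrocyte markers Gfap rose in 5xFAD (log2 1.43 ± 0.14, adjusted p = 2.32e-05), in 5xFAD-Dp16 against wild-type and in 5xFAD-Dp16 against Dp16. Their sum was 2452 to 2829 CPM in 5xFAD-Dp16, 2410 to 3322 CPM in 5xFAD, 1878 to 2067 CPM in Dp16 and 1859 to 2148 CPM in wild-type.

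Markers of T and natural killer cells, which read class I molecules, were low in all groups, and the groups overlapped. The 12 genes summed to 2.104 to 4.81 CPM in 5xFAD-Dp16, 2.24 to 3.51 CPM in 5xFAD, 1.98 to 2.75 CPM in Dp16 and 1.83 to 5.61 CPM in wild-type, Cd8a averaged 0.171, 0.154, 0.104 and 0.111 CPM in the same groups, and 0 of the 3 tested passed in any pairwise comparison. The 5 B cell markers summed to 17.6 to 20.3 CPM in 5xFAD-Dp16, 15.2 to 27.0 CPM in 5xFAD, 10.7 to 11.6 CPM in Dp16 and 11.3 to 13.97 CPM in wild-type. Nearly all of that was Ighm, which rose in 5xFAD against wild-type (log2 0.79 ± 0.14, edgeR adjusted p = 0.0101) and in 5xFAD-Dp16 against Dp16 (log2 0.90 ± 0.16, adjusted p = 0.00827), while Ms4a1 was at 0 in both carrier groups. Endothelial markers summed to 276 to 290 CPM in 5xFAD-Dp16, 233 to 372 CPM in 5xFAD, 258 to 343 CPM in Dp16 and 278 to 322 CPM in wild-type.

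The members varied together within genotypes to different degrees. As a description, deviations of log2 CPM from the genotype mean were correlated over 16 libraries. Depth and tissue content are shared across genes in a library, and sex was not removed from the deviations. B2m and Tapbp were both higher in every female than in every male of each genotype that holds both. The correlation was 0.893 between B2m and H2-D1, 0.889 between B2m and H2-K1, and 0.891 between B2m and Tapbp. B2m correlated at 0.682 with Tap2 and at 0.490 with Tap1. B2m and Psmb9 correlated at 0.0199, B2m and Psmb8 at 0.297, and B2m and Nlrc5 at 0.0728. Counting noise lowers the correlations of genes with few counts, such as Psmb9 (24 to 82 per library) and Nlrc5 (7 to 46). How much it lowered these values was not tested. Nlrc5 correlated at 0.534 with Tap1 and at -0.381 with Tap2. 5xFAD replicate 4 was the lowest 5xFAD library for B2m, H2-D1, H2-K1, Tap1, Tap2 and Tapbp and the highest for Psmb8, Psmb9 and Nlrc5. Deviations of 11643 other genes with a mean of at least 5 CPM were ranked by their correlation with the mean deviation of the members. The 5 highest were Riox2 (r = 0.824), Oasl2 (0.813), Gcnt2 (0.812), Ulk3 (0.790) and Pramef8 (0.790). A ranking of so many genes over 16 libraries can give high values by chance, which was not tested. In 5xFAD against wild-type their log2 differences were 0.099, 1.01, 0.14, 0.25 and 0.025 in the same order, and none passed in edgeR.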

How the data were processed

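Per the labels' protocols, polyadenylated RNA of hippocampus was made into strand-specific libraries and sequenced as paired ends. Tools named in the submitters' processing notes are bcl2fastq, FastQC 0.11.5, HISAT2 2.1.0, SAMtools 1.5 and HTSeq 0.6.1 with GRCm38; the strand setting of counting was not given in the sources used here. The authors deposited raw read counts per gene and RPKM values, and for 14043 genes the deposited RPKM implied 1 gene length across libraries (relative spread at most 8.9e-16), so RPKM rescales the counts. Total counts were 15838097 to 25037769 per library, which limits precision mainly for Nlrc5, Psmb9 and Tap1.

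Counts were tested with edgeR 4.0.16 in R 4.3.3: default low-count filter, TMM scaling, and a robust quasi-likelihood fit over all 16 libraries with terms for genotype and sex. A fit over the 3 genotypes with both sexes tested the 5xFAD effect between them. The threshold was a Benjamini-Hochberg adjusted p below 0.05 over all genes tested. CPM are TMM-scaled. DESeq2 1.42.0 was among the alternatives. Exon overlaps, positions and shared 100-base windows came from a GENCODE annotation of GRCm38, upstream windows from RefSeq, and alignments from Biopython 1.88.

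The members and lists were chosen with earlier results of these data known. All members are named; from each list, genes that passed are named when there are up to 6, else the 4 with the smallest p, and where none passed, up to 2 with the smallest p in at least 1 comparison. The values of some items are not reported here.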

Additional observations from a re-analysis of the deposited data

Results flagged for a closer look

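In 84 groups of 4 libraries, made of 9 members, 9 marker sums and 3 immunoproteasome ratios in each genotype, 10 held a library whose gap to the nearest of the others was unusually large for the range of the group; chance alone flags about 5% of groups. Among members, B2m stood at 241 CPM in 5xFAD-Dp16 replicate 2, against 209 to 213 CPM in the other 5xFAD-Dp16 libraries. H2-K1 stood low at 37.9 CPM in 5xFAD replicate 4, against 52.8 to 54.8 CPM in the other 5xFAD libraries. H2-K1 also stood low at 25.6 CPM in wild-type replicate 1, against 33.9 to 35.5 CPM in the other wild-type libraries. Tap2 stood low at 15.1 CPM in 5xFAD-Dp16 replicate 3, against 16.7 to 17.0 CPM. Nlrc5 stood high at 0.814 CPM in Dp16 replicate 4, against 0.434 to 0.471 CPM.

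Among marker sums, microglial markers stood at 495 CPM in Dp16 replicate 3, against 473 to 476 CPM in the other Dp16 libraries. Oligodendrocyte markers stood at 8806 CPM in 5xFAD-Dp16 replicate 3, against 5146 to 5340 CPM. Midbrain and hypothalamus markers stood at 65.7 CPM in 5xFAD-Dp16 replicate 3, against 8.45 to 16.8 CPM, at 345 CPM in 5xFAD replicate 2, against 7.79 to 13.1 CPM, and at 319 CPM in wild-type replicate 4, against 8.37 to 12.2 CPM.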

How the results depend on the processing

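B2m and H2-D1 kept their calls in all 3 comparisons that differ by the 5xFAD transgenes under every alternative, except that H2-D1 lost it among males alone in 5xFAD against wild-type and in 5xFAD-Dp16 against Dp16; scaling by relative log expression or adding a choroid plexus term, the latter chosen after seeing the data, moved no count by over 1.5 times. Members called in 5xFAD against wild-type numbered 1 among males, 2 with the compared groups fitted alone and 2 to 5 with 1 library left out, against 4. In 5xFAD-Dp16 against wild-type they numbered 2 with the groups alone; H2-K1 and Psmb8 were the calls lost with the groups alone. In 5xFAD-Dp16 against Dp16 they numbered 5 with DESeq2, 5 without the 4 libraries that an earlier analysis of these data set aside for midbrain genes (wild-type 4, 5xFAD 2 and 4, 5xFAD-Dp16 3, of which 5xFAD 4 was not high here) and 1 among males, against 3.

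Counts of all genes called, in the order 5xFAD, Dp16 and 5xFAD-Dp16 against wild-type, then 5xFAD-Dp16 against 5xFAD and against Dp16, were 292, 38, 267, 27 and 269 with DESeq2; 398, 210, 355, 75 and 620 without the low-count filter, which gave 128 in the interaction; 44, 0, 61, 0 and 49 among males; and 76, 4, 40, 0 and 81 with the groups alone. Without the sex term 17 passed in 5xFAD-Dp16 against 5xFAD, and without the 4 libraries 39 passed in Dp16 against wild-type. Leaving out 1 library gave 3 to 17 in Dp16 against wild-type, 80 to 172 in 5xFAD-Dp16 against wild-type, 0 to 11 in 5xFAD-Dp16 against 5xFAD and 76 to 146 in 5xFAD-Dp16 against Dp16. The replicate numbers did not pair the libraries: the lowest correlation of same-numbered libraries was -0.272, -0.354, -0.322 and 0.0214 for numbers 1 to 4, and 3 of 16 correlated best with their own number. A replicate block gave 162 calls in 5xFAD against wild-type, 4 of them members, and 0 in 5xFAD-Dp16 against 5xFAD. The causes were not tested.

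Sign reversals fell on values that did not pass. In 5xFAD-Dp16 against 5xFAD, log2 values without the sex term were -0.033 (B2m), -0.080 (Tapbp) and -0.096 (Psmb8); among males 0.055 (Tap1) and -0.10 (Psmb8); with the block -0.019 (Psmb8); without the 4 libraries -0.035 (B2m), 0.026 (Tap1), -0.035 (Tap2) and -0.073 (Tapbp); with the groups alone 0.035 (Tap1) and -0.13 (Psmb8). In the interaction they were -0.098 (H2-K1) and -0.089 (Tap2) without the sex term, 0.045 (Tap1) among males, and without the 4 libraries -0.094 (H2-K1), 0.016 (Tap1), -0.19 (Tap2), -0.026 (Tapbp) and 0.28 (Nlrc5). Between females and males they were -0.031 (H2-K1) without the filter and -0.27 (H2-K1) and 0.035 (Psmb8) without the 4 libraries. With 1 library left out, values in 5xFAD-Dp16 against 5xFAD ranged from -0.0084 to 0.17 (B2m), -0.28 to 0.10 (Tap1), -0.038 to 0.30 (Tap2), -0.046 to 0.13 (Tapbp) and -0.12 to 0.16 (Psmb8). The interaction ranged from -0.22 to 0.020 (H2-D1), -0.099 to 0.17 (H2-K1), -0.19 to 0.18 (Tap2), -0.22 to 0.063 (Psmb9) and -0.42 to 0.076 (Nlrc5), and females minus males from -0.057 to 0.28 (B2m), -0.26 to 0.098 (H2-D1), -0.23 to 0.28 (H2-K1) and -0.092 to 0.23 (Tapbp).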
